A study of Homo sapiens with 6 samples.

Results

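Microtubules are hollow polymers of alpha and beta tubulin, and the proteins described here build, bind, cut or chemically mark them. They were chosen by name as 44 genes of plus-end tracking, lattice binding, severing, minus-end binding, tubulin folding and tubulin modification. These names matched 45 of the 58735 rows of the deposited gene counts table, because TBCE is listed under 2 Ensembl identifiers. One row, CAMSAP3, had 0 counts in all 6 libraries. By a floor of 3 counts per library, that allows up to 0.0430 to 0.0550 CPM (counts scaled by library size), taken on raw library totals. The other 44 passed the filter on low counts and were tested.

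RNA-seq counts came from RPE-1 cells, an immortalised human retinal pigment epithelial line, carrying CETN2 tagged with GFP to mark centrioles and PLK4 under a doxycycline-inducible rtTA promoter. The siControl group was 3 libraries from cells given a scramble siRNA, and the siSON group was 3 libraries from cells given an siRNA against the splicing factor SON. PLK4 was induced with 1 µg/mL doxycycline in both groups, so no group shows the line without induced PLK4. The labels do not say whether the libraries of a group came from separate cultures, and p-values then measure only the spread between these libraries, which may be technical.

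Growing microtubule plus ends are tracked by EB proteins (the MAPRE genes), which recruit CLIP, CLASP and other partners. Structural MAPs coat the lattice, katanin, spastin and fidgetin cut it, and stathmin sequesters free tubulin dimers. Tubulin itself is folded by prefoldin, the cytosolic chaperonin and the cofactors TBCA to TBCE. It is marked on its tail by the removal and return of tyrosine and by chains of glutamate. The same machinery forms centriole walls, cilia and the mitotic spindle.

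Library totals ran from 54572365 to 69764836 counts. SON itself had 295.3, 312.7 and 283.9 CPM in siControl and 67.96, 69.96 and 65.00 CPM in siSON. It fell to 22.8% of its control level (log2 fold change -2.14, SE 0.06). Of 13 genes listed as markers of retinal pigment epithelium, MITF, OTX2, KRT8, KRT18 and VIM were present, the lowest value being 19.7 CPM for OTX2. BEST1 was present at 7.71 to 14.8 CPM. RGR and TYR had 0 counts in all 6 libraries, and RPE65, RLBP1 and TYRP1 did not exceed 0.258 CPM. Of the low markers, PMEL fell from 2.06 to 0.200 CPM and LRAT from 0.433 to 0.0692 CPM (log2 fold changes -3.36 and -2.62, adjusted p 3.72e-07 and 0.000251). MITF, OTX2, BEST1, KRT8 and KRT18 rose (0.52, 0.82, 0.62, 0.34 and 1.48), and VIM was not called (-0.14). All 13 together came to 7506 to 8640 CPM in siControl and 7870 to 7973 CPM in siSON, and the 10 without VIM, KRT8 and KRT18 to 51.5 to 53.3 and 74.1 to 83.4 CPM. The 10 markers of other cell types summed to 16.9 to 18.7 CPM in siControl and 14.2 to 15.8 CPM in siSON, and KRT5, RBFOX3 and HBB were at 0 throughout. In bulk RNA, fewer cells of a type and less RNA per cell cannot be told apart.

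SON knockdown moved microtubule genes in both directions. In edgeR's quasi-likelihood test at an adjusted p under 0.05, 35 of the 44 tested rows changed, 21 higher and 14 lower in siSON, which is 79.5% against 71.7% of all 16591 genes tested. Among all genes 35.2% were called higher and 36.5% lower. Of the members, 11 were called with a change of 2-fold or more, 6 higher and 5 lower, where the shares over all genes were 8.72% higher and 20.5% lower. The median log2 fold change of the tested members was 0.28 and that of all genes -0.03. These medians depended on the scaling: they were 0.051 and 0.035 under cyclic loess normalization, and 0.081 and -0.22 with library size alone. The groups did not overlap for 37 of the 44, beside 75.1% of all genes, and for all 35 that were called. Scaling by library size alone, which shifted all genes by a median of -0.20, gave 18 higher and 18 lower members, and cyclic loess normalization gave 19 higher and 16 lower.

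**Figure D1:**
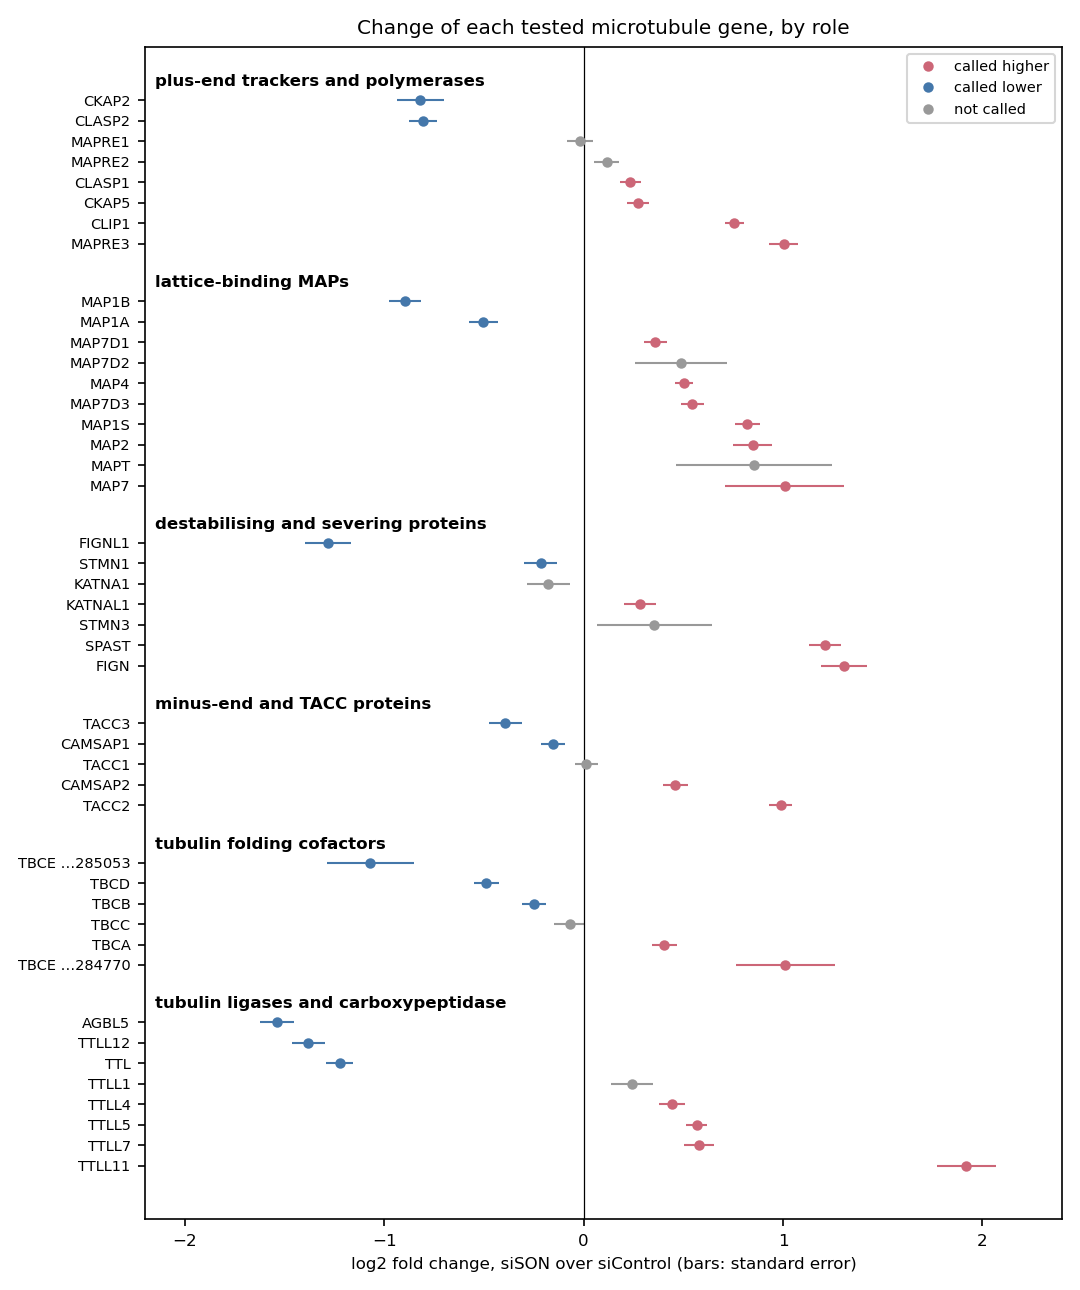
Log2 fold change (siSON over siControl, horizontal axis) with its standard error for the 44 tested rows, grouped by role. Every role holds members on both sides of 0, from AGBL5 at -1.54 to TTLL11 at 1.92.

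The enzymes that modify tubulin spanned the widest range of fold changes among the 6 role groups. Of the 8 enzymes, 7 were called, 4 higher and 3 lower. That is 87.5%, beside 71.7% of all genes tested. TTLL11, a ligase that lengthens glutamate chains on tubulin tails, stood at 2.28, 3.29 and 2.42 CPM in the siControl libraries (in the order of replicates 1 to 3, as below) and at 9.63, 9.77 and 10.8 CPM in the siSON libraries. All 3 knockdown libraries lay above all controls, and the gene rose 3.79-fold (log2 fold change 1.92, SE 0.15, adjusted p 4.38e-07). TTLL11 (ENSG00000175764; GRCh38 chromosome 9, 121821928 to 122093606, minus strand, 9 exons) shares its strand with TTLL11-IT1, an intronic transcript. The other 3 glutamate ligases that were called rose by less. TTLL4, which starts chains, went from 22.5 ± 0.590 to 30.6 ± 0.576 CPM (SD, n = 3 each). TTLL5 rose from 81.3 ± 1.45 to 120.3 ± 3.15 CPM and TTLL7 from 25.9 ± 1.18 to 38.6 ± 2.84 CPM. Their log2 fold changes were 0.44, 0.57 and 0.58, with adjusted p-values of 0.000100, 1.69e-06 and 3.53e-05. TTLL5 shares its strand with IFT43 and FLVCR2 along its span. TTLL1, the catalytic subunit of another glutamate ligase, was not called at 8.29 ± 0.458 and 9.80 ± 1.07 CPM (log2 fold change 0.24, adjusted p 0.0616), and was called higher under cyclic loess normalization (0.47) and without siSON replicate 3.

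AGBL5 encodes CCP5, the carboxypeptidase that removes the glutamate at a chain's branch point. Its levels were 49.5, 53.6 and 55.7 CPM in siControl and 16.2, 19.3 and 19.3 CPM in siSON. The groups stood well apart, and AGBL5 fell to 34.5% of control (log2 fold change -1.54, SE 0.09, adjusted p 4.00e-08). AGBL5 (ENSG00000084693; chromosome 2, 27042364 to 27070622, plus strand, 15 exons) overlaps OST4 and AGBL5-AS1 on the other strand and AGBL5-IT1 on its own. TTL, the ligase that returns tyrosine to alpha tubulin, had 61.3, 59.6 and 62.1 CPM in siControl and 24.3, 26.5 and 27.6 CPM in siSON, again without overlap. It fell to 42.8% of control (log2 fold change -1.22, SE 0.07, adjusted p 3.53e-08; chromosome 2, 112482154 to 112541739, plus strand, 7 exons). TTLL12, a divergent member of the same family, had 36.1, 35.7 and 34.8 CPM in siControl and 12.1, 14.3 and 14.6 CPM in siSON. It fell to 38.4% of control (log2 fold change -1.38, SE 0.08, adjusted p 8.06e-08). TTLL12 (chromosome 22, 43166622 to 43187133, minus strand, 14 exons) lies 77193 bases from TTLL1 on the same strand, the TTLL gene that was not called. Reads of AGBL5 and of genes on its other strand cannot be told apart here, since the strand setting of the counting is not given in the sources used here.

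**Figure D2:**
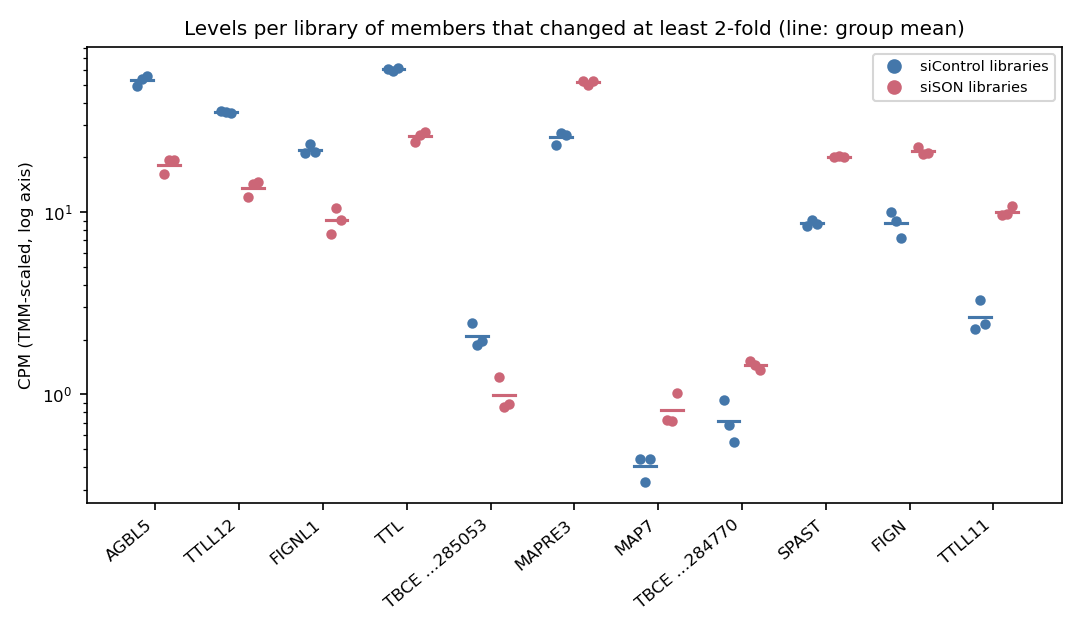
CPM (log axis) in each of the 3 siControl and 3 siSON libraries for the 11 members called with at least a 2-fold change, with a line at each group mean. No gene's groups overlap, and the spread within a group is small beside the distance between the groups except at the low levels of MAP7 and TBCE.

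The plus-end group held 8 tested genes, of which 6 were called, 4 higher and 2 lower. That is 75%, near the 71.7% of all genes tested. MAPRE3, which encodes EB3, had 23.4, 27.3 and 26.6 CPM in siControl and 52.5, 49.9 and 52.7 CPM in siSON. The knockdown libraries were at about 2-fold the control level, and MAPRE3 rose by 1.00 on the log2 scale (SE 0.07, adjusted p 3.29e-07). Its paralogs did not pass the test: MAPRE1 (EB1) had 190.5 ± 9.54 and 188.1 ± 14.1 CPM (adjusted p 0.808), and MAPRE2 (EB2) had 50.6 ± 1.77 and 54.8 ± 2.89 CPM (adjusted p 0.12). MAPRE1 was called lower with library size alone (-0.22) and under cyclic loess normalization (-0.33). Per kilobase of the union of a gene's exons, MAPRE1 had the highest value in both groups, at 72.6 ± 3.64 CPM per kb in siControl and 71.7 ± 5.39 in siSON. MAPRE3 went from 7.10 ± 0.574 to 14.2 ± 0.434 CPM per kb. The rank of MAPRE1 depends on the length used. Its exon union and its representative transcript are both 2623 bases, but STMN1 has a union of 6261 bases and a transcript of 1712.

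MAPRE3 (ENSG00000084764; chromosome 2, 26970612 to 27027196, plus strand, 7 exons) and AGBL5 lie on the same strand with 15167 bases between them. Genes outside the member list were not looked for in that gap. MAPRE3 rose while AGBL5 fell. Their promoters are printed for that reason, as the 250 bases before the RefSeq start site (GRCh38.p14, plus strand, 5′ to 3′), at chr2:26970387-26970636 for MAPRE3 and chr2:27051418-27051667 for AGBL5. RefSeq sequences were matched for 40 of the 44 names. The AGBL5 start used by RefSeq lies inside the gene span given above, and a second MAPRE3 start listed by RefSeq is not shown.
MAPRE3: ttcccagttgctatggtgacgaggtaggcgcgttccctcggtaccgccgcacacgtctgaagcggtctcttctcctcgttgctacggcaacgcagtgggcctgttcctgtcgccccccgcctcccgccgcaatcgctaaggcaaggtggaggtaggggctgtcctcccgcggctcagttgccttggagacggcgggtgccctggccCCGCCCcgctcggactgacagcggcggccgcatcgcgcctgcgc
AGBL5: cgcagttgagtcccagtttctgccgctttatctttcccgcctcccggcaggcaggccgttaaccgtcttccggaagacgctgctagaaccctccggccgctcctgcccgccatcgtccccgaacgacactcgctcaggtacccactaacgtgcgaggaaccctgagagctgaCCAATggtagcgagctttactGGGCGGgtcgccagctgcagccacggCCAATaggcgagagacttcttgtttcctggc
Capitals mark matches, on either strand, to the letters GGGCGG, called a GC box here, or to a CCAAT box. The letters of a TATA box, TATAAA, were also searched, and no matches overlap. The printed MAPRE3 stretch holds 1 GC box and no CCAAT box, and that of AGBL5 holds 1 GC box and 2 CCAAT boxes, with GC contents of 69.2% and 62%. The stretch before the second MAPRE3 start (chr2:27014504-27014753) holds 0 GC boxes and 1 CCAAT box, with a GC content of 59.2%. Which MAPRE3 start these cells use was not tested. Over all 35116 RefSeq promoters of this length, 42.6% hold the GC box, 32.0% the CCAAT box and 10.7% the TATA box. These matches describe letters only.

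Among the other plus-end genes, CLIP1, which encodes the linker CLIP-170, rose from 195.8 ± 2.53 to 330.6 ± 10.7 CPM, by 0.76 on the log2 scale (SE 0.05, adjusted p 9.77e-08). The rescue factors CLASP1 and CLASP2 went opposite ways. CLASP2 fell from 53.5 ± 2.61 to 30.6 ± 1.92 CPM (log2 fold change -0.80, adjusted p 1.31e-06), and CLASP1 was called higher, at 92.6 ± 2.36 and 108.9 ± 4.32 CPM (0.23, adjusted p 0.00230). CKAP5, the tubulin polymerase also called ch-TOG, was called higher with 247.1, 249.6 and 253.1 CPM in siControl and 280.5, 301.6 and 324.1 CPM in siSON (0.27, adjusted p 0.00123). The calls of CLASP1 and CKAP5 were lost with library size alone (adjusted p 0.572 and 0.266), and under cyclic loess normalization their values were -0.0055 and -0.074. CKAP2, a spindle protein of dividing cells, had 213.0, 245.8 and 252.4 CPM in siControl and 108.1, 146.8 and 148.3 CPM in siSON. Replicate 1 was the lowest library of both groups for CKAP2, and the gene fell by 0.82 on the log2 scale (SE 0.12, adjusted p 0.000154).

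Of the 10 MAPs that bind along the lattice, 80% were called, 6 higher and 2 lower. Over all genes tested 71.7% were called, 35.2% higher and 36.5% lower. The MAP1 family was split. MAP1B, with 627.9, 687.2 and 645.2 CPM in siControl and 307.0, 354.2 and 393.1 CPM in siSON, fell to 53.8% of control (log2 fold change -0.89, SE 0.08, adjusted p 1.90e-06). MAP1A fell from 272.7 ± 16.3 to 192.3 ± 19.0 CPM (-0.50, adjusted p 8.39e-05), and the shorter member MAP1S rose from 64.5 ± 1.76 to 114.1 ± 7.77 CPM (0.82, adjusted p 4.12e-07). MAP4, the main structural MAP of cells that are not neurons, rose from 503.0 ± 3.71 to 713.5 ± 28.9 CPM (0.50, adjusted p 2.07e-06), a call not kept under cyclic loess normalization (0.10, adjusted p 0.0581). Per kilobase of the exon union, MAP1B stood above MAP4 in siControl (51.7 ± 2.41 and 33.7 ± 0.248 CPM per kb) and below it in siSON (27.8 ± 3.41 and 47.8 ± 1.93). The order in siControl depends on the length used. The exon union of MAP4 is 14943 bases and its representative transcript 5142, against 12630 and 12036 for MAP1B.

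MAP2 and MAPT (tau) are best known as MAPs of neurons. MAP2 rose from 20.3 ± 2.73 to 36.5 ± 2.33 CPM (log2 fold change 0.85, SE 0.10, adjusted p 1.27e-05). MAPT was near the lower end of detection at 0.430, 0.189 and 0.468 CPM in siControl and 0.810, 0.465 and 0.708 CPM in siSON, and its groups overlapped. The MAPT log2 fold change was 0.86 (SE 0.39, adjusted p 0.0701), and it was called with the replicate number as a block (0.90, adjusted p 0.0376), without siSON replicate 2 and under cyclic loess normalization. Of the neuronal markers, RBFOX3 had 0 counts in all 6 libraries, SNAP25 was higher (5.05 and 9.11 CPM) and TUBB3 lower (9.51 and 4.81 CPM).

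The MAP7 family links microtubules to kinesin-1. MAP7D1 rose from 276.9 ± 10.7 to 355.2 ± 23.2 CPM and MAP7D3 from 50.2 ± 0.965 to 73.4 ± 3.65 CPM (log2 fold changes 0.36 and 0.55, adjusted p 0.000185 and 7.68e-06). For MAP7D1 cyclic loess normalization gave 0.0020 and no call. MAP7 itself had only 0.444, 0.330 and 0.442 CPM in siControl and 0.724, 0.717 and 1.02 CPM in siSON. These are 21 to 52 counts per library, and the rise of 1.01 on the log2 scale carries an SE of 0.30 (adjusted p 0.0102). MAP7D2 was not called at 0.925 ± 0.138 and 1.30 ± 0.219 CPM (adjusted p 0.0768), but was called higher under cyclic loess normalization (0.90).

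Severing enzymes showed some of the strongest changes, and those changes differed in sign within the family. FIGN (fidgetin) had 10.1, 8.997 and 7.23 CPM in siControl and 22.8, 20.9 and 21.2 CPM in siSON, a rise of 1.31 on the log2 scale (SE 0.12, adjusted p 1.5e-06). SPAST (spastin), which is mutated in hereditary spastic paraplegia, had 8.43, 9.03 and 8.65 CPM in siControl and 20.1, 20.3 and 20.0 CPM in siSON. The siSON libraries stood within 1 CPM of each other, and SPAST rose 2.31-fold (log2 fold change 1.21, SE 0.08, adjusted p 1.30e-07). FIGNL1 (fidgetin-like 1), which also acts in homologous recombination, went the other way, with 21.1, 23.6 and 21.5 CPM in siControl and 7.60, 10.6 and 9.05 CPM in siSON. It fell to 41.1% of control (log2 fold change -1.28, SE 0.12, adjusted p 1.67e-06). FIGN (ENSG00000182263) is on chromosome 2 from 163593396 to 163736012, SPAST (ENSG00000021574) on chromosome 2 from 32063547 to 32157637, and FIGNL1 (ENSG00000132436) on chromosome 7 from 50444128 to 50542535, where it overlaps DDC on its own strand.

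The catalytic katanin subunit KATNA1 was not called at 16.8 ± 0.618 and 14.9 ± 2.23 CPM (adjusted p 0.161) and was called lower with library size alone (-0.37) and without siSON replicate 3, while KATNAL1 was called higher at 50.4 ± 2.86 and 61.4 ± 6.45 CPM (log2 fold change 0.28, adjusted p 0.00878). The KATNAL1 call was lost with library size alone (0.09) and under cyclic loess normalization (0.13). STMN1 (stathmin) was called lower at 380.0 ± 15.1 and 327.3 ± 41.8 CPM (-0.22, adjusted p 0.0350). That call was lost without siControl replicate 3 (adjusted p 0.0944), without siSON replicate 1 (0.102) and without siSON replicate 2 (0.0553). STMN3 was not called at 0.969 ± 0.330 and 1.25 ± 0.288 CPM (adjusted p 0.292), and was called higher under cyclic loess normalization (0.81).

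CAMSAP proteins hold free minus ends, and TACC proteins act with CKAP5 at centrosomes and plus ends. CAMSAP2 rose from 54.3 ± 3.19 to 74.7 ± 2.22 CPM (log2 fold change 0.46, adjusted p 4.55e-05). CAMSAP1 was called lower, at 61.8 ± 1.58 and 55.5 ± 2.72 CPM (-0.15, adjusted p 0.0378), a call lost in DESeq2 (adjusted p 0.0509), without a filter (0.0774) and in 4 of the 6 fits that left out a library: without siControl replicate 2 (0.0620), siControl replicate 3 (0.105), siSON replicate 1 (0.133) or siSON replicate 2 (0.114). TACC2 rose from 52.2 ± 1.63 to 103.6 ± 4.72 CPM (0.99, adjusted p 6.01e-08). TACC3, the mitotic member, fell from 148.9 ± 9.60 to 113.4 ± 12.9 CPM (-0.39, adjusted p 0.00124). TACC1 was not called at 156.1 ± 4.77 and 157.5 ± 9.83 CPM (0.01, adjusted p 0.852), although library size alone gave -0.18 and cyclic loess normalization -0.28, both called lower.

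Balance between paralogs was measured as the log2 ratio of their CPM within each library (prior 0.5 CPM), which library scaling hardly touches. Of 23 pairs of tested members in 10 families, 16 had ratios that did not overlap between the groups. That is 69.6%, below the 75.1% of single genes whose groups did not overlap, and nothing particular to paralogs is read from the count. Each of these reached p = 0.1 in a 2-sided exact permutation test, the smallest that 3 libraries against 3 allow, with an adjusted p of 0.144 over the 23 pairs, so no pair could pass 0.05. The FIGN to FIGNL1 ratio moved most. It was -1.03, -1.34 and -1.51 in siControl and 1.53, 0.95 and 1.19 in siSON, a shift of 2.52 on the log2 scale. Per kilobase of the exon union, FIGN was below FIGNL1 in siControl (0.882 and 4.39 CPM per kb) and near it in siSON (2.18 and 1.803). Which gene is higher in siSON depends on the length used. The exon union of FIGNL1 is 5034 bases and its representative transcript 3700, against 9942 and 9536 for FIGN. MAP1B to MAP1S went from 3.33 ± 0.03 to 1.61 ± 0.08 (SD, n = 3 each), TACC2 to TACC3 from -1.37, -1.502 and -1.64 to 0.08, -0.29 and -0.17 in the order of the libraries, and CLASP1 to CLASP2 from 0.79 ± 0.04 to 1.81 ± 0.10. MAPRE1 to MAPRE3 went from 2.86 ± 0.08 to 1.85 ± 0.13. Smaller shifts were seen for CAMSAP1 to CAMSAP2 (-0.61), STMN1 to STMN3 (-0.48) and KATNA1 to KATNAL1 (-0.46). In the families of MAP7 and of MAP2, MAP4 and MAPT, whose scarce members lie near or below 1 CPM, the values and the pair that moved most depended on the prior. MAP2 to MAPT shifted by 0.40 with a prior of 0.5 CPM and by 0.098 with 0.1 CPM, and the fitted changes of MAP2 and MAPT were nearly equal (0.85 and 0.86). MAP7D2 to MAP7D3 shifted by -0.21 with overlapping groups and by -0.099 with the lower prior, where MAP7 to MAP7D1 (0.50) moved most in that family.

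**Figure D3:**
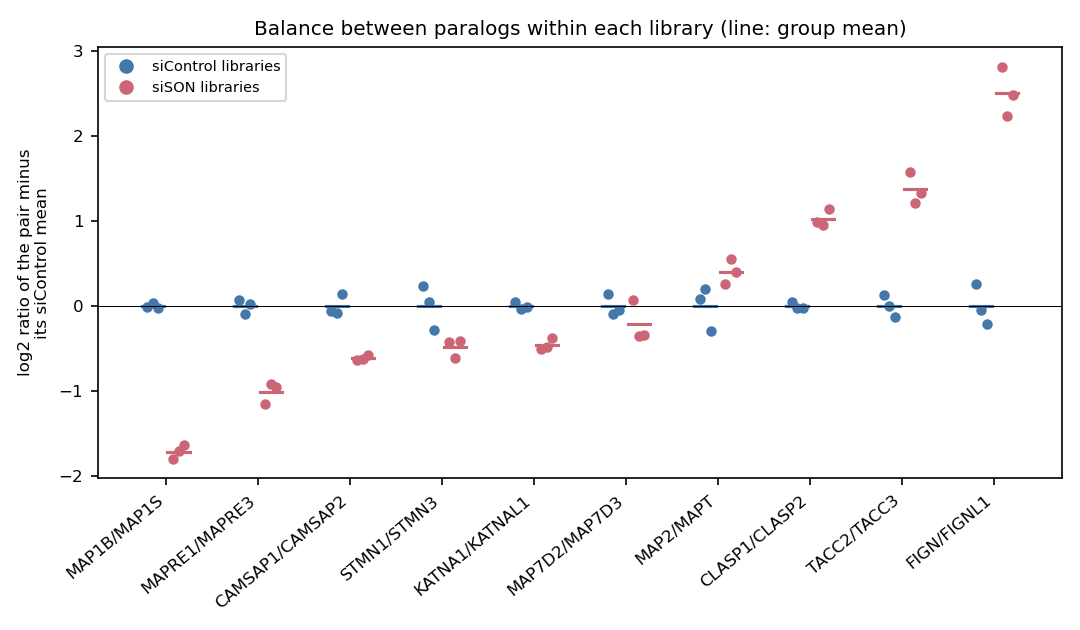
For the pair that moved most in each of the 10 families with a prior of 0.5 CPM, the log2 ratio of CPM in each library minus the pair's siControl mean, with a line at each group mean. Both groups overlap for MAP7D2/MAP7D3 and are apart for the other 9 pairs, with FIGN/FIGNL1 highest and MAP1B/MAP1S lowest, while the value of MAP2/MAPT and the choice of pair in its family and that of MAP7 depend on the prior.

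Tubulin folding cofactors take tubulin from the chaperonin and assemble the dimer. TBCA, which captures beta tubulin, was called higher at 97.2 ± 4.68 and 128.7 ± 8.69 CPM (log2 fold change 0.40, adjusted p 0.000154), with an adjusted p of 0.0506 under cyclic loess normalization. TBCB, which captures alpha tubulin, fell from 54.8 ± 1.91 to 46.1 ± 1.87 CPM (-0.25, adjusted p 0.00345), and TBCD, part of the complex that joins the dimer, fell from 63.0 ± 1.53 to 44.9 ± 2.64 CPM (-0.49, adjusted p 3.23e-05). TBCC, a gene of 1 exon, was not called at 20.2 ± 0.732 and 19.3 ± 1.24 CPM (adjusted p 0.445) and was called lower with library size alone (-0.27).

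TBCE, another cofactor for alpha tubulin, appears as 2 identifiers that overlap on the plus strand of chromosome 1. ENSG00000285053 (235328570 to 235448952, 20 exons) had 2.47, 1.86 and 1.97 CPM in siControl and 1.24, 0.853 and 0.885 CPM in siSON (log2 fold change -1.07, SE 0.22, adjusted p 0.000996). ENSG00000284770 (235367360 to 235452443, 18 exons) had 0.932, 0.676 and 0.549 CPM in siControl and 1.53, 1.45 and 1.36 CPM in siSON (1.01, SE 0.25, adjusted p 0.00337). The rows thus moved in opposite directions, each without overlap. Their sum was 2.82 ± 0.504 CPM in siControl and 2.44 ± 0.290 CPM in siSON (2-sided exact permutation p = 0.4, n = 3 each). How reads that fit both identifiers were counted is not given in the sources used here, so the level of TBCE and its change are uncertain.

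The steps before the cofactors were measured with genes of the related list of severing and folding genes, in which 13 of 16 tested were called, 11 higher and 2 lower (14 with the replicate block, 12 of them higher). That is 81.25% called without the block, beside 71.7% of all genes tested, of which 35.2% were called higher and 36.5% lower. The list does not hold every subunit of the chaperonin or of prefoldin. All 6 chaperonin subunits listed were called higher, with CCT5 from 241.0 ± 6.45 to 448.5 ± 8.10 CPM (log2 change 0.90, SE 0.05) and TCP1 at the low end (0.35). All 5 prefoldin subunits listed, which hand nascent tubulin to the chaperonin, were also called higher. PFDN4 went from 20.5 ± 1.07 to 47.0 ± 2.47 CPM (1.20), PFDN1 from 57.5 ± 1.27 to 124.1 ± 7.11 CPM (1.11) and PFDN6 from 25.03 ± 2.62 to 47.5 ± 3.95 CPM (0.93). Under cyclic loess normalization TCP1 had a value below 0 with no call, and PFDN5 (0.19) was called lower there (-0.14). The PFDN5 call was also lost with library size alone (-0.0082) and without siControl replicate 2.

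**Figure D4:**
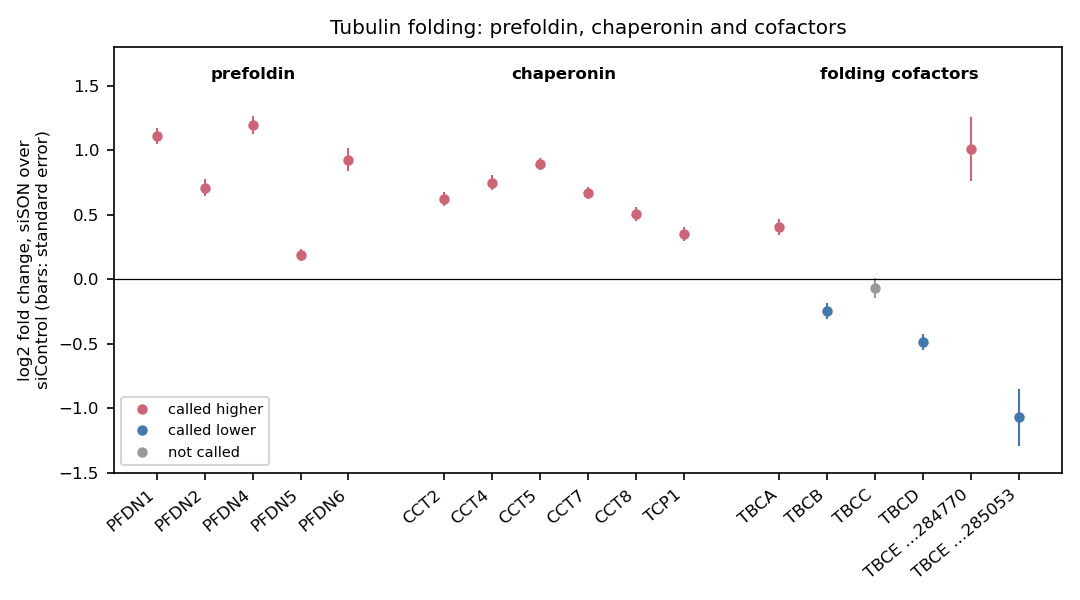
Log2 fold change (siSON over siControl, vertical axis) with its standard error for the listed prefoldin subunits, the listed chaperonin subunits and the tubulin folding cofactors. All 11 values of the listed prefoldin and chaperonin subunits lie above 0, while the 6 cofactor rows lie on both sides.

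Of 22 further listed genes of tubulin modification, 14 were tested and 9 called, 1 higher and 8 lower. That is 64.3% called, below the 71.7% of all genes tested, of which 35.2% were called higher and 36.5% lower. With the replicate block 11 were called, 2 higher and 9 lower, which added TPGS2 (0.10, adjusted p 0.0366) and LRRC49 (-0.25, adjusted p 0.0361). SIRT2, a deacetylase that can act on tubulin, fell from 39.98 ± 1.96 to 9.53 ± 0.834 CPM (log2 fold change -2.07, SE 0.09, adjusted p 5.80e-09). HDAC6, the main tubulin deacetylase, fell by 0.85 and the glycine ligase TTLL3 by 0.96 on the log2 scale (adjusted p 5.30e-05 and 0.000140). The TTLL3 gene shares its strand with the read-through gene ARPC4-TTLL3. AGBL3, another carboxypeptidase, was the gene called higher without the block, at 2.62 ± 0.374 and 3.61 ± 0.415 CPM (0.46, adjusted p 0.0230), and that call was lost with library size alone and without siControl replicate 2, siControl replicate 3 or siSON replicate 1. Of 29 tested genes on the list of other plus-end and lattice proteins, 17 were called (58.6%, also below the share of all genes), 9 higher and 8 lower. In that list EML2, EML3 and CLIP3 fell most (-2.26, -1.91 and -1.75), and CLIP4, MID1 and TPX2 had the largest rises above a mean log2 CPM of 1 (0.78, 0.61 and 0.52).

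Gene structure was set beside the changes because SON acts in splicing. The 5 members that fell at least 2-fold had median intron lengths of 540 to 7489 bases, with a median of 883, and the 6 that rose at least 2-fold had 805 to 61931 bases, with a median of 2587. The median of 883 bases is that of FIGNL1, whose representative transcript has only 1 intron, and the value of 61931 is that of FIGN, with 2 introns. The median over the 43 tested rows with introns was 2139 bases. Over these 43 genes the log2 fold change and the log10 of the median intron length had a Pearson r of 0.34 and a Spearman rho of 0.28, against 0.27 and 0.25 over 12699 protein-coding genes tested. Without FIGN and TTLL11, the points farthest from the median intron length, r was 0.16 and rho 0.17. TTL fell with long introns (7489 bases) and MAPRE3 rose with short ones (805 bases), and MAP7D1 rose with the shortest, 207 bases. For the log10 of the gene span, from gene start to end, r was 0.34 and rho 0.40 over the 44 members. Over 13008 protein-coding genes these were 0.22 and 0.23. For transcript GC content the Pearson r was 0.04 over the 44 members and -0.26 over 13003 protein-coding genes. Genes are not independent replicates, and all points share the same 6 libraries.

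**Figure D5:**
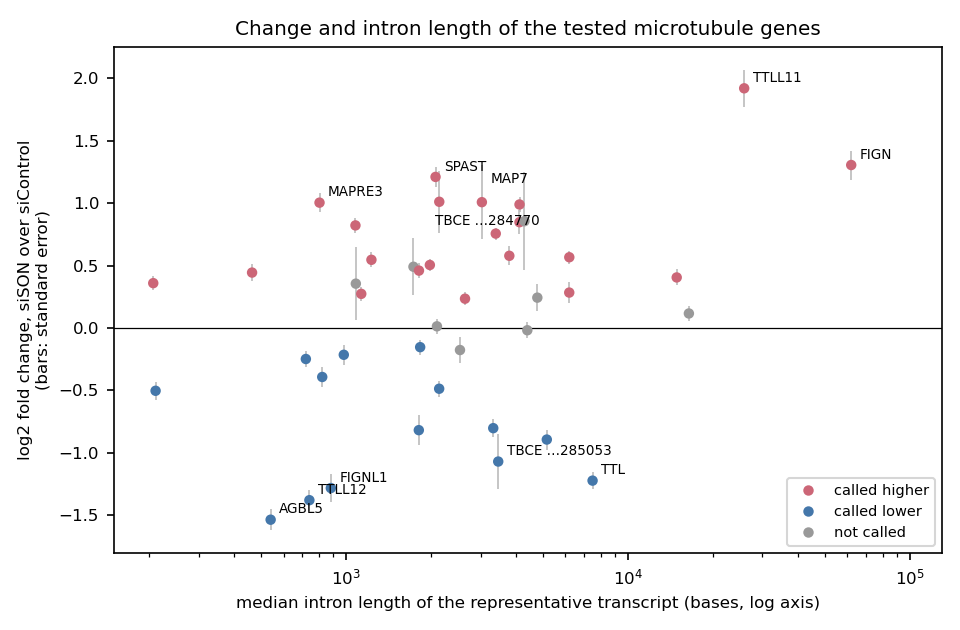
Median intron length of each gene's representative transcript (bases, log axis) against its log2 fold change with standard error, for the 43 tested rows with introns. AGBL5, TTLL12 and FIGNL1 lie at 540 to 883 bases among the falls, FIGN and TTLL11 at the longest introns among the rises, and TTL among the falls with long introns.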

How the data were processed

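The authors deposited raw whole-number read counts per gene for 6 RPE-1 libraries, with no pooling. The submitters' processing notes name cutadapt 1.16, STAR 2.5.2a, featureCounts 1.6.2, DESeq2 1.28.1 and hg38, without settings. All 58735 identifiers matched GENCODE release 29 of GRCh38, the source of positions, exons, introns and exon lengths (the union of a gene's exons).

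The tests used edgeR 4.0.16 under R 4.3.3: filterByExpr (minimum count 10), TMM scaling, a robust quasi-likelihood fit on group alone and Benjamini-Hochberg adjustment over all 16591 genes tested. The fit was tested on simulated data and missed the first acceptance rule, on the recovery of 2-fold changes. That rule was then replaced by rules on bias, sign and false calls, which it met. The simulation changed only a small share of genes, in both directions, with the same dispersion for all genes. In these data 71.7% of genes were called, so the simulation cannot show bias from scaling or the false calls here. SE is the absolute log2 fold change over the square root of F. CPM uses TMM-scaled library sizes, except for the floor of 3 counts, which uses raw library totals. The floor of 3 counts allows for counting error alone, because no molecular identifiers mark which reads are copies.

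The members and lists were chosen with earlier results of these data known. Members called with at least a 2-fold change and no overlap are given in every library, and the others by range, mean or count. Related genes are named as the 3 largest rises and falls per list among genes called above a mean log2 CPM of 1. One gene that this rule names is not reported here. CCT5, TCP1, PFDN5, TPGS2 and LRRC49, and values by library for CKAP2, CKAP5, MAP1B and MAPT, were chosen after their values were seen. Same-numbered libraries deviated together (correlations 0.323, 0.129 and 0.230 on log2(CPM + 0.5), lowest 0.0461 with edgeR's prior count of 2), so the replicate block is printed where it changes a call. Alternatives were DESeq2 1.42.0, limma-voom 3.58.1, RLE factors, library size alone, no filter, a mean count of at least 50, the block, leaving out each library and, chosen after seeing the data, cyclic loess.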

Additional observations from a re-analysis of the deposited data

How the results depend on the processing

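Over the alternatives other than leaving out a library, members called higher ranged from 18 to 22 and members called lower from 13 to 18, and all genes called from 10226 to 12604. With 1 of the 6 libraries left out at a time they were 21 to 22, 12 to 15 and 11153 to 11783. With the replicate block (same-numbered correlations 0.129 to 0.323) 22 members were called higher and 14 lower, MAPT gained a call at 0.90, and no other member's call changed. The median log2 fold change of the members (0.28) was 0.081 with library size alone, 0.20 with a mean count of at least 50, which tests fewer genes, 0.051 under cyclic loess normalization and 0.21 to 0.35 when a library was left out. Of 614 single-gene values under the alternatives, 574 kept their direction and side of the threshold.

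Signs turned for MAPRE1, MAPRE2 and TACC1, which were not called, and for CLASP1 and CKAP5, which were called higher (0.23 and 0.27). MAPRE2 was -0.081 with library size alone and -0.030 under cyclic loess normalization, CLASP1 -0.0055 and CKAP5 -0.074 under cyclic loess, and TACC1 -0.18 with library size alone, -0.044 with a mean count of at least 50 and -0.28 under cyclic loess. Leaving out a library gave -0.077 to 0.055 for MAPRE1 and -0.023 to 0.069 for TACC1. With a prior of 0.1 CPM the shift of MAP7/MAP7D3 was 0.31, MAP7D1/MAP7D2 -0.088 and MAP4/MAPT -0.25, and leaving out a library gave -0.095 to 0.082, -0.083 to 0.17 and -0.050 to 0.22. The number of pairs without overlap was 16 with that prior and 16 to 18 without a library. The cause was not tested. Depth limits MAP7, MAP7D2, MAPT, STMN3 and both TBCE rows.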
